A study of Mus musculus with 16 samples.

Results

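The 8 mouse genes described here encode the enzymes that write DNA methylation, their cofactors and the enzymes that remove it. They are Dnmt3a, Dnmt3b, Dnmt3l, Dnmt1 and Uhrf1 on the writing side and Tet1, Tet2 and Tet3 on the erasing side, 8 of the 22367 protein-coding genes of the annotation. The regions assigned to a gene were those that overlapped its body or lay within 50 kb of any of its annotated transcription start sites (TSSs), by at least 1 bp. This rule took 204 of the 162760 regions in 6 lists.

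The study asked whether mouse embryonic stem (ES) cells of the XX (female) and XY (male) karyotype differ in their chromatin, and used chromatin immunoprecipitation and sequencing (ChIP-seq) for H3K27Ac, H3K27Me3 and H3K4Me1. The female group was 2 independent XX lines (BCF3 and BCF4) and the male group 2 independent XY lines (BCM1 and BCM2), all hybrids of C57BL/6 and CAST/EiJ, labelled passage 7 to 10. Both groups were grown in serum/LIF on inactivated mouse embryonic fibroblasts (MEFs), which came from pooled embryos of both sexes and were depleted before the chromatin was taken. For each sex and mark the authors deposited a single list of enriched regions, which holds positions and nothing else, so presence, width and edges are the only values. The 3 female lists held 28784 H3K27Ac, 18534 H3K27Me3 and 39404 H3K4Me1 regions, against 26100, 15138 and 34800 in the male lists. With 1 list per sex and mark there is no replicate error, and no difference between the sexes could be tested.

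DNA methylation in mammals is placed on cytosines that precede a guanine (CpG). Dnmt3a and Dnmt3b add it to unmethylated DNA, Dnmt3l is a catalytically inactive partner that stimulates them, and Dnmt1 copies the pattern onto the new strand after replication, guided by Uhrf1, which binds hemimethylated CpG. Tet1, Tet2 and Tet3 oxidise 5-methylcytosine, which starts its removal. Of the marks, H3K27Ac is found at promoters and enhancers in use, H3K4Me1 at enhancers both active and poised, and H3K27Me3 is the Polycomb mark of repressed genes. In mouse ES cells Dnmt3b, Dnmt3l, Tet1 and Tet2 are abundant and Tet3 is low, Dnmt3a is used mainly through the shorter isoform Dnmt3a2 from an internal start, and XX lines in serum are known to carry less DNA methylation than XY lines.

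The sequences at the starts show how unlike each other these genes are. The lines below give the 250 bases upstream of the start in the direction of transcription, 5′ to 3′, from the NCBIM37 (mm9) reference, with each CG dinucleotide in capitals. They are shown for the 5′ end of Dnmt3a, its short isoform start, and the starts of Dnmt3b, Tet3 and Dnmt3l. Those of Dnmt3b and Tet3 carried H3K27Me3 in both lists, and that of Dnmt3l is CpG-poor with H3K27Ac. The annotated 5′ end of Dnmt3a belongs to a retained-intron transcript, and its first protein-coding starts lie 0.5 to 1.2 kb downstream. The positions are chr12:3805757-3806006 (plus strand) and chr12:3891478-3891727 (plus) for Dnmt3a, chr2:153474936-153475185 (plus) for Dnmt3b, chr6:83391673-83391922 (minus) for Tet3 and chr10:77504442-77504691 (plus) for Dnmt3l.
Dnmt3a 5′ end: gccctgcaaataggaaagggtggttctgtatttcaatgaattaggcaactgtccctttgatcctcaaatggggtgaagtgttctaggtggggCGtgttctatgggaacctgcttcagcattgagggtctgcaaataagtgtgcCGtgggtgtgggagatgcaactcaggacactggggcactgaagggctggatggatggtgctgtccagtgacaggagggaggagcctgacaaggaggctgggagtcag
Dnmt3a short isoform start: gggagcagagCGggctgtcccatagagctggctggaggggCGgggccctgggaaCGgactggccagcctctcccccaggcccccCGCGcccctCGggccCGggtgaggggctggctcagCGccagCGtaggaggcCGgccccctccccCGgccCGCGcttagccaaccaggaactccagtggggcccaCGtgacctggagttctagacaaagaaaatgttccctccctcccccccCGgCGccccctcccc
Dnmt3b 5′ end: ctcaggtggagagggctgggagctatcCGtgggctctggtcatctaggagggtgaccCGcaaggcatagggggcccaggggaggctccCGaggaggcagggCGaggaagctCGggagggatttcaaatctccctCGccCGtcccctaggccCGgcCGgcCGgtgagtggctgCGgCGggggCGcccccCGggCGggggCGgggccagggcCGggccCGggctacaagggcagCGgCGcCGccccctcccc
Tet3 5′ end: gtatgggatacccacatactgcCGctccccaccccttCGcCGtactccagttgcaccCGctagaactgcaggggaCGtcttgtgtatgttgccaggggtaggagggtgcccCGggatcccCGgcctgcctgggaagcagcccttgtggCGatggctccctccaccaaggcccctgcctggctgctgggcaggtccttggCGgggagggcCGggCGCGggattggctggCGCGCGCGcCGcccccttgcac
Dnmt3l 5′ end: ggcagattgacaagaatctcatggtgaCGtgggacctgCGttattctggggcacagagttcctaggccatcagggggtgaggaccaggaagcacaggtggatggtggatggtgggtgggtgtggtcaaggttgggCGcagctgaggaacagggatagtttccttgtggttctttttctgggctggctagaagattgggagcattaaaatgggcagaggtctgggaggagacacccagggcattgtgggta

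These 250 bases held 2 CG dinucleotides before the 5′ end of Dnmt3a, 16 before its short isoform, 21 at Dnmt3b, 17 at Tet3 and 3 at Dnmt3l. Over the 500 bases on each side of the start, the ratio of observed to expected CpG was 0.92 at Tet2, 0.83 at Dnmt3b, 0.59 at Dnmt1, 0.54 at Tet3, 0.53 at Uhrf1 and 0.43 at the 5′ end of Dnmt3a. It was lowest at Tet1 (0.27) and Dnmt3l (0.21), and the median over 22364 protein-coding starts was 0.55. The short isoform start of Dnmt3a had a ratio of 0.52. The H3K27Me3-bearing starts of Dnmt3b, Tet3 and Dnmt3a thus spanned ratios from 0.83 to 0.43, and Tet2, with the highest ratio, had no H3K27Me3 at its start in either list. Within 500 bases of the start the 7-base core GTCTCTA of the motif of Prdm14, a factor known in mouse ES cells to repress genes of de novo methylation, was found on either strand at 0 of the 8 genes, against 9.84% of all protein-coding starts.

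Near the 8 genes all 3 marks were frequent, and H3K27Ac and H3K4Me1 were present at each of them in both sexes. H3K27Ac lay in the windows of 8 of 8 genes in the female list and 8 of 8 in the male list, where 80.0% and 78.8% of all protein-coding genes had it. H3K4Me1 was likewise present at 8 and 8 genes, against backgrounds of 77.9% and 77.5%. H3K27Me3 was present at 7 genes in the female list and 4 in the male list, against 67.3% and 61.6% of all genes. It was found in the female and not the male list at Dnmt3l, Dnmt1 and Tet1, 3 of 8 genes where 9.51% of all genes had this pattern, and in the male and not the female list at 0 of 8, against 3.78%. This depended on the window. With the gene body plus 5 kb around each TSS, H3K27Me3 was present at 4 genes in the female list and 3 in the male list. At that window 40.5% and 35.4% of all genes had it. There Dnmt1 alone had it in the female list only. With 20 kb the counts were 6 and 3, and the genes with it in the female list only were Dnmt1, Tet1 and Tet2. The share over all genes was not computed for 20 kb. Uhrf1 had no H3K27Me3 in its window of 50 kb in either list. The windows of the 8 genes were longer than usual, with a median of 137.8 kb against 100.3 kb over all genes, which by itself raises the chance of holding a region.

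**Figure D1:**
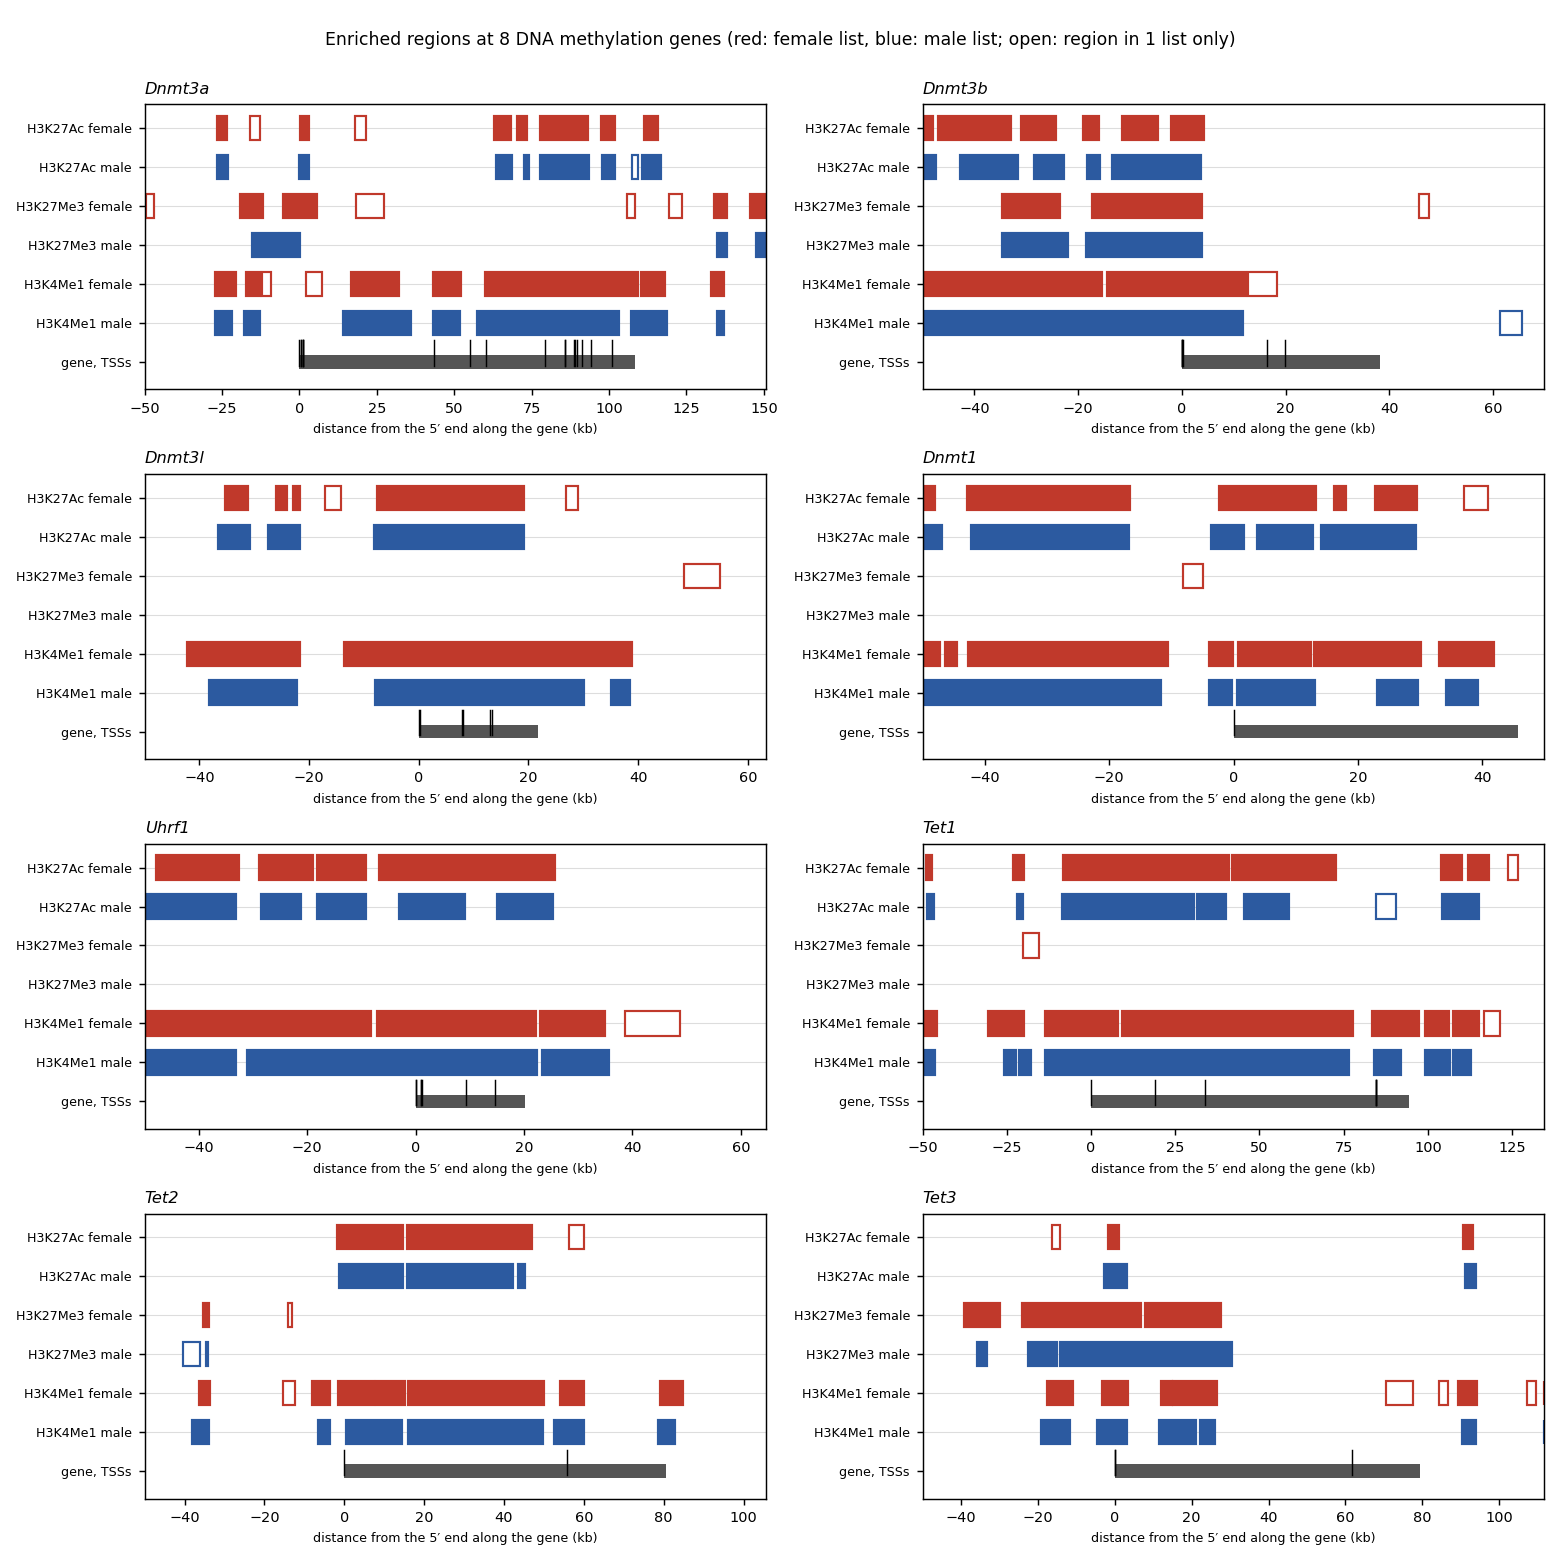
Maps of the 8 genes, with distance from the 5′ end in kb along the direction of transcription on the x axis. Each row is a mark and list, with the female list (red) above the male list (blue). Open boxes are regions with no overlap in the other list, the grey bar is the gene and black ticks are annotated TSSs, and regions are cut off at the edge of the window. H3K27Me3 covers the starts of Dnmt3b and Tet3 in both lists and is absent from the Uhrf1 window.

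Directly at the gene starts, within 2 kb of the 5′ end, the genes fell into 2 kinds. Dnmt3l, Dnmt1, Uhrf1, Tet1 and Tet2 carried H3K27Ac and H3K4Me1 without H3K27Me3 in both lists, a state seen at 31.3% of all genes in the female list and 33.1% in the male list. Dnmt3a, Dnmt3b and Tet3 carried H3K27Ac together with H3K27Me3 in both, so that H3K27Me3 was present at 3 starts in the female list and 3 in the male list (30.8% and 26.9% of all genes). At Dnmt3a, however, the male H3K27Me3 region ended at 0.2 kb. It stopped short of the protein-coding starts at 0.5 to 1.2 kb, which H3K27Me3 covered in the female list alone. All 3 marks met at 3 starts in the female list (Dnmt3a, Dnmt3b and Tet3; 11.5% of all genes) and at 2 in the male list (Dnmt3b and Tet3; 9.80%). H3K27Ac was thus present at 8 of 8 starts in each list, where 48.2% of all genes had it in the female list and 48.3% in the male list. H3K4Me1 was present at 8 starts in the female list and 7 in the male list (58.1% and 57.0%). The only start that differed between the lists in presence was that of Dnmt3a, where H3K4Me1 came within 2 kb in the female list alone, as at 5.51% of all genes. That region began 1994 bp from the 5′ end, just inside the limit, and the difference in the count of starts with all 3 marks rests on it.

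Counting regions, the 8 windows held 45 H3K27Ac regions in the female list and 40 in the male list, 19 and 11 of H3K27Me3, and 50 and 39 of H3K4Me1. The ratios of female to male counts were 1.12, 1.73 and 1.28, beside 1.10, 1.22 and 1.13 over all autosomes, on which the 8 genes lie. The female lists were longer throughout, and in region counts H3K27Me3 was the mark whose ratio at these genes stood furthest above its background. In covered length the windows held 407.1 kb of H3K27Ac in the female list and 367.1 kb in the male list, 157.6 and 115.8 kb of H3K27Me3, and 673.9 and 595.4 kb of H3K4Me1. The ratios of covered length were 1.11, 1.36 and 1.13, beside 1.06, 1.24 and 1.03 over all autosomes, so that by length H3K27Me3 and H3K4Me1 stood above their backgrounds by similar amounts. The largest difference in H3K27Me3 length was at Dnmt3a, with 46.2 kb in the female list and 20.8 kb in the male list. Dnmt3b (34.2 and 35.2 kb) and Tet2 (2.6 and 4.8 kb) had more in the male list. Of the bases covered in either list, 72.8% of H3K27Ac, 56.9% of H3K27Me3 and 79.5% of H3K4Me1 were covered in both, against 65.8%, 49.4% and 67.0% over all autosomes. H3K27Me3 was thus the least shared mark at these genes, as it was genome-wide.

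**Figure D2:**
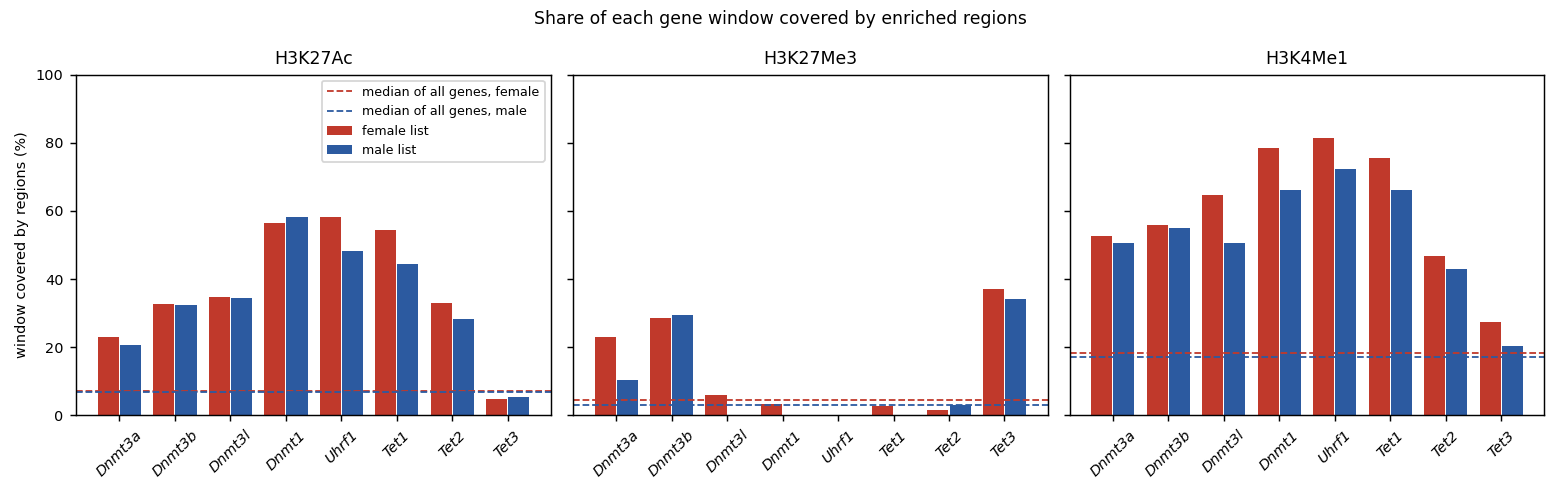
Percent of each gene window covered by regions of each mark (y axis), female list (red bars) left of male list (blue bars), with dashed lines at the median over all protein-coding genes. H3K27Ac covers more than 20% of the window at every gene but Tet3 in both lists, and H3K27Me3 stands high at Tet3, Dnmt3b and, in the female list, Dnmt3a.

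Dnmt3a, on chr12:3806007-3914443 (plus strand), had contrasting states near its 5′ end and at the short isoform start. Near the 5′ end, a narrow H3K27Ac region of 3.0 kb in the female list (from 0.2 to 3.2 kb, counted from the 5′ end) and 3.4 kb in the male list (from -0.2 to 3.2 kb) lay beside or within H3K27Me3. That H3K27Me3 region spanned 10.8 kb in the female list, from -5.2 to 5.6 kb, and 6.6 kb in the male list, from -6.4 to 0.2 kb. Its downstream edge therefore reached 5.4 kb further into the gene in the female list. As a result 6 of the 18 annotated TSSs of Dnmt3a lay inside H3K27Me3 in the female list and 1 in the male list. The 1 in the male list was the retained-intron start at the 5′ end, not a protein-coding start. Over the whole window H3K27Ac overlapped H3K27Me3 over 9.2 kb in the female list and 0.4 kb in the male list. The female sum was made up of 3.0 kb at the 5′ end and of 3.0 and 3.2 kb in the 2 female-only H3K27Ac regions, upstream and in an intron.

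The short isoform start, 85.7 kb into the gene, was free of H3K27Me3 in both lists. It lay inside a wide H3K27Ac region of 15.6 kb in the female list and 15.8 kb in the male list (the 96.2 and 96.4 percentiles of width), whose edges differed by 0.2 and -0.4 kb, a positive value meaning that the female region reached further. The same start lay in H3K4Me1 regions of 49.6 kb in the female list and 45.8 kb in the male list, at the 99.4 and 99.3 percentiles. The start used for Dnmt3a2 thus lay in broad active marks, which it shared with other annotated starts of the gene. In each list the H3K27Ac region held 7 annotated TSSs of Dnmt3a and the H3K4Me1 region 10. The width of this H3K27Ac region differed between the lists by 200 bp, 1 step of the grid on which regions are placed.

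Away from its starts Dnmt3a had 4 of the 9 female-only H3K27Me3 regions of the 8 genes, and Dnmt3b, Dnmt3l, Dnmt1, Tet1 and Tet2 had 1 each. Of its 8 female H3K27Me3 regions 4 had no male counterpart, and of its 4 male regions each had a female one. The female-only regions lay at -49.6 to -46.8 kb within the neighbouring gene Dtnb, at 18.4 to 27.2 kb in an intron of Dnmt3a, at 105.8 to 108.4 kb entirely in exonic sequence near its 3′ end, and at 119.4 to 123.6 kb downstream, before Pomc. The 2 lists shared 28.8% of the bases covered by H3K27Me3 in this window, against 87.6% at Dnmt3b and 80.2% at Tet3. In the same intron a female-only H3K27Ac region of 3.6 kb (18.0 to 21.6 kb) overlapped the female-only H3K27Me3 region, and both lay in H3K4Me1 that was present in the 2 lists (16.8 to 32.2 kb in the female list and 14.2 to 36.0 kb in the male list). A female-only H3K27Ac region also lay upstream, from -15.8 to -12.8 kb, wholly inside H3K27Me3 of the female list and over 2.4 kb inside that of the male list. Female-only H3K4Me1 flanked the 5′ end, from -12.0 to -9.2 kb and from 2.0 to 7.2 kb. The remaining regions over TSSs of Dnmt3a were shared, with H3K27Ac of 4.4 kb in the female list and 4.0 kb in the male list that ended at 101.8 kb in both, and H3K4Me1 of 9.0 kb in each list (43.2 to 52.2 kb in the female list and 43.0 to 52.0 kb in the male list).

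At the 3′ end of Dnmt3a the lists held opposite marks. The female list had H3K27Me3 on chr12:3911801-3914399 and the male list H3K27Ac on chr12:3913401-3915399, each without a counterpart of its own mark in the other list, and the regions overlapped. This male-only H3K27Ac region was 2.0 kb wide, at the 16.8 percentile of its list. Markers of fibroblasts, the feeder cells, had H3K27Ac over the gene or within 5 kb of a TSS at 2 of 14 genes in the female list (Fn1 and Lum; 58.8% of all genes) and at 6 of 14 in the male list (Col1a1, Fn1, Twist1, Twist2, Lum and S100a4; 58.3%), while Col1a2, Col3a1 and Pdgfra had none in either. Female-only H3K27Ac regions were found at 0 of the 14 (12.4% of all genes) and male-only ones at 5 (Col1a1, Fn1, Twist1, Twist2 and S100a4; 7.99%). The part of feeder chromatin in the male-only H3K27Ac regions here and at Tet1 was not tested. ES cell markers, among them Pou5f1 and Nanog, had H3K27Ac at 10 of 10 genes in each list, against the same 58.8% and 58.3% of all genes.

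Dnmt3b, on chr2:153475186-153513466 (plus strand), had the most closely shared H3K27Me3 of the 8 genes. Over its start the H3K27Me3 region was 21.2 kb wide in the female list (-17.4 to 3.8 kb) and 22.4 kb in the male list (-18.6 to 3.8 kb), with the same downstream edge to the base, at the 97.3 and 98.0 percentiles of width. A further region upstream, from -34.8 to -23.6 kb in the female list and -34.8 to -22.0 kb in the male list, shared its upstream edge. This start was also acetylated, by a 6.4 kb H3K27Ac region in the female list (-2.2 to 4.2 kb) and a 17.0 kb region in the male list (-13.4 to 3.6 kb). The male region joined a stretch that the female list split in 2, with the other part of 7.0 kb at -11.6 to -4.6 kb. H3K27Ac and H3K27Me3 overlapped over 23.0 kb of the window in the female list and 28.6 kb in the male list. Of 6 annotated TSSs, 4 lay inside both of these marks in each list.

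The H3K4Me1 of Dnmt3b was divided differently in the lists. The female list had regions of 42.4 kb (-57.8 to -15.4 kb) and 26.8 kb (-14.4 to 12.4 kb), and the male list had a single region of 72.2 kb, from -60.4 to 11.8 kb. A female-only region of 5.6 kb followed closely, from 12.8 to 18.4 kb, over a TSS inside the gene, the only one of the 30 regions confined to 1 list near these genes that held a TSS of its gene. Far downstream, at 61.4 to 65.6 kb, lay the only male-only H3K4Me1 region of the 8 genes, and at 45.8 to 47.6 kb a female-only H3K27Me3 region of 1.8 kb.

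Dnmt3l, on chr10:77504692-77526367 (plus strand), had broad H3K27Ac of nearly equal extent over its start. The region was 26.8 kb wide in the female list and 27.2 kb in the male list, at the 99.1 and 99.2 percentiles, and the downstream edges fell on the same base, 19.1 kb into the gene. All 6 annotated TSSs lay in it in both lists. H3K4Me1 over the start was wider in the female list, 52.6 kb from -13.7 to 38.9 kb, against 38.0 kb from -7.9 to 30.1 kb in the male list, where a separate 3.4 kb region followed at 35.1 to 38.5 kb. The sole H3K27Me3 region in this window was the female-only one at 48.3 to 54.9 kb, 20.9 kb from the nearest start of another protein-coding gene, Icosl, and with no other mark of either list on it. Its width ranked at the 71.3 percentile of the female list. Female-only H3K27Ac lay on both sides of the gene, at -17.1 to -14.1 kb, outside H3K4Me1 of either list, and at 26.9 to 29.1 kb over the start of Icosl, a ligand of T cell costimulation, inside H3K4Me1 of both lists.

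Dnmt1, the maintenance methyltransferase, lies on chr9:20711650-20757317 (minus strand) and had H3K27Ac over 56.3% of its window in the female list and 58.1% in the male list, at the 98.2 and 98.7 percentiles of all genes. Over the start the female list had a single H3K27Ac region of 15.6 kb (-2.3 to 13.3 kb), whereas the male list had 5.4 kb (-3.7 to 1.7 kb) and a separate 9.0 kb (3.7 to 12.7 kb). Between 14.1 and 29.3 kb the division was reversed, with female regions of 2.0 and 6.8 kb against 1 male region of 15.2 kb. H3K4Me1 left the single annotated TSS uncovered in both lists, ending at -0.1 kb and starting again at 0.7 kb in the female list, and at -0.3 and 0.5 kb in the male list. A female-only H3K27Me3 region of 3.2 kb lay at -8.1 to -4.9 kb, between stretches of H3K4Me1, and a female-only H3K27Ac region of 3.8 kb at 37.1 to 40.9 kb, wholly inside H3K4Me1 of the female list and over 2.2 kb inside that of the male list. No region of any mark was male-only at Dnmt1.

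Uhrf1, on chr17:56442744-56462909 (plus strand), was covered by active marks and had no H3K27Me3 within 50 kb of its TSSs in either list. The absence depended on the window, since H3K27Me3 of both lists lay just beyond its upstream edge. There it overlapped a female H3K4Me1 region that spanned -54.3 to -8.1 kb. H3K27Ac over the gene was continuous for 32.4 kb in the female list (-6.7 to 25.7 kb, the 99.5 percentile) and interrupted in the male list, with 12.2 kb from -3.1 to 9.1 kb and 10.2 kb from 15.1 to 25.3 kb. Consequently 7 of its 7 TSSs lay in H3K27Ac in the female list and 5 in the male list. Upstream, 1 H3K27Ac region from -18.1 to -9.1 kb had the same edges in both lists, the only such pair of 25 at the 8 genes. H3K4Me1 over the start was 29.4 kb wide in the female list and 53.6 kb in the male list, which joined it to the upstream stretch, and H3K4Me1 covered 81.5% of the window in the female list and 72.2% in the male list, the largest shares among the 8 genes in each list. The region confined to 1 list was female-only H3K4Me1 of 10.2 kb, from 38.7 to 48.9 kb, within Kdm4b, which encodes a histone H3K9 demethylase.

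Tet1, on chr10:62267318-62361866 (minus strand), had more kb of H3K27Ac than any other of the 8 genes, 100.6 kb in the female list and 81.8 kb in the male list, in a window of 184.6 kb. As a share of the window this was 54.5% and 44.3%, below Uhrf1 (58.2% and 48.2%) and Dnmt1 in each list. Over the start a region of 49.2 kb in the female list (-8.3 to 40.9 kb) corresponded to male regions of 39.2 kb (-8.5 to 30.7 kb) and 8.6 kb (31.5 to 40.1 kb). The next region, inside the gene, was 30.8 kb wide in the female list (41.9 to 72.7 kb) and 13.4 kb in the male list (45.5 to 58.9 kb), a ratio of 2.30. Its downstream edge differed by 13.8 kb, more than any other paired edge at the 8 genes. H3K4Me1 spanned nearly the same stretch in both lists, as regions of 21.8 kb (-13.7 to 8.1 kb) and 68.8 kb (9.1 to 77.9 kb) in the female list and a single 90.4 kb in the male list (-13.7 to 76.7 kb). The stretch where Tet1 had H3K27Ac in the female list alone thus carried H3K4Me1 in both.

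Near the 3′ end of Tet1 the male list had H3K27Ac from 84.7 to 90.5 kb (5.8 kb) that the female list lacked, in H3K4Me1 present in both lists. Exonic sequence made up 89.5% of it. That H3K4Me1, which held the 3 TSSs at this end of the gene, was 14.2 kb wide in the female list and 8.0 kb in the male list. Upstream, the female list had H3K27Me3 of 4.8 kb from -20.3 to -15.5 kb, 1.2 kb from a start of the neighbouring gene Slc25a16, overlapping H3K27Ac and H3K4Me1 of both lists towards its upstream edge. Downstream, within Ccar1, the female list alone had H3K27Ac (123.7 to 126.7 kb) and H3K4Me1 (116.7 to 121.3 kb), which did not overlap each other.

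Tet2, on chr3:133126643-133207354 (minus strand), was the most alike in the 2 lists in H3K27Ac, with 85.6% of its covered bases in both. The regions over the start were 16.6 kb in the female list (-1.8 to 14.8 kb) and 16.0 kb in the male list (-1.2 to 14.8 kb), and the next were 27.6 and 26.4 kb, starting at 15.8 kb in both. H3K4Me1 of 34.0 kb in the female list and 33.8 kb in the male list began at 16.0 kb in both. The 5′ end itself lay in H3K4Me1 in the female list (-1.6 to 7.4 kb) and 0.4 kb outside it in the male list (0.4 to 14.4 kb). A female-only H3K27Ac region of 3.8 kb lay at 56.4 to 60.2 kb, close to the second annotated TSS at 55.7 kb, which H3K4Me1 covered in both lists (54.0 to 60.2 kb in the female list and 52.6 to 60.2 kb in the male list). H3K27Me3 here was sparse and upstream of the gene, with 2.6 kb in the female list and 4.8 kb in the male list, of which 8.81% was shared. It comprised a female-only 1.0 kb at -14.0 to -13.0 kb, inside female-only H3K4Me1 of 3.2 kb, a shared region of 1.6 kb in the female list and 0.6 kb in the male list, and 4.2 kb at -40.4 to -36.2 kb, the only male-only H3K27Me3 at the 8 genes.

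Tet3, on chr6:83312367-83391672 (minus strand), stood apart from Tet1 and Tet2 in the balance of the marks. H3K27Me3 covered 60.0 kb of its window in the female list and 55.0 kb in the male list, 37.1% and 34.0% of its length and the 92.7 and 94.6 percentiles of all genes. H3K27Ac covered 7.6 kb in the female list and 8.6 kb in the male list, 4.70% and 5.31%. Over the start the female list had H3K27Me3 of 31.0 kb (-24.1 to 6.9 kb), followed by 19.8 kb (7.9 to 27.7 kb), and the male list had 44.8 kb (-14.3 to 30.5 kb), preceded by 7.4 kb (-22.5 to -15.1 kb). Within it lay narrow H3K27Ac at the start, 2.8 kb in the female list (-1.7 to 1.1 kb) and 5.8 kb in the male list (-2.7 to 3.1 kb), a ratio of 0.483. H3K4Me1 over the start was of similar width, 6.8 kb in the female list and 8.0 kb in the male list. The H3K27Ac ratio was the largest relative narrowing of a female region among the 25 H3K27Ac pairs. A further H3K27Me3 region upstream was 9.2 kb in the female list and 2.8 kb in the male list, a ratio of 3.29.

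Tet3 also had 3 of the 9 female-only H3K4Me1 regions, at 70.7 to 77.5 kb over the 3′ part of the gene (87.6% exonic), at 84.3 to 86.7 kb in Bola3 and at 107.3 to 109.7 kb in Mob1a. Its female-only H3K27Ac region, at -16.3 to -14.1 kb, lay inside H3K4Me1 of both lists and H3K27Me3 of the female list, and spanned the gap between the male H3K27Me3 regions, which covered 1.4 kb of it. This stretch had 67.4% G and C and a CpG ratio of 0.723, the highest of the 30 regions confined to 1 list, whose other ratios ran from 0.109 to 0.459.

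In all, 30 of the 204 regions were confined to 1 list, 26 to the female list and 4 to the male list. Female-only regions were 8 of 45 for H3K27Ac (17.8%), 9 of 19 for H3K27Me3 (47.4%) and 9 of 50 for H3K4Me1 (18.0%), beside 18.8%, 39.5% and 21.3% over all autosomes. Male-only regions were 2 of 40 (5.0%), 1 of 11 (9.09%) and 1 of 39 (2.56%), beside 10.5%, 23.4% and 13.1%. The female-only shares were therefore near those of the autosomes, and the male-only shares below them, from 4 regions. By gene, 6 of 8 had a female-only region of H3K27Ac (31.3% of all genes), 6 of H3K27Me3 (43.1%) and 6 of H3K4Me1 (47.4%), a different 6 for each mark. Male-only regions were found at 2 genes for H3K27Ac (Dnmt3a and Tet1; 19.8%), 1 for H3K27Me3 (Tet2; 22.7%) and 1 for H3K4Me1 (Dnmt3b; 25.5%). These counts depended on the window and on narrow regions. With the gene body plus 5 kb around each TSS, female-only H3K27Ac was found at 3 genes (12.4% of all genes). Female-only H3K27Me3 was found there at 2 genes (15.6%) and female-only H3K4Me1 at 3 (21.4%). With the widest 50% of each list, female-only H3K27Ac was found at 3 genes and male-only H3K27Ac at 5 (Dnmt3l, Dnmt1, Uhrf1, Tet1 and Tet3). Both lists were trimmed before they were compared, so a shared region became confined to 1 list when its narrower partner was dropped. Of those 5 genes Tet1 alone had male-only H3K27Ac in the full lists, so these counts do not show a turn in the balance.

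Of these 30 regions 0 lay over the 5′ end of the gene and 1 over another TSS, while 10 lay in the body, 10 upstream and 10 downstream, with the Dnmt3b region counted in the body. The window rule assigned regions confined to 1 list 62037 times to protein-coding genes in the whole lists, and of these 5.51% lay over the 5′ end, 2.59% over another TSS, 24.7% in the body with that TSS class included, 41.2% upstream and 28.6% downstream. Some of the 30 came close to a TSS of their gene, with 0.1 kb between the male-only H3K27Ac of Tet1 and a TSS at its 3′ end, 0.6 kb at the female-only H3K27Ac in Tet2 and 0.8 kb at the female-only H3K4Me1 of Dnmt3a. Of the 30, 17 held no exonic base, against 49.7% in the whole lists. Among the 20 of H3K27Ac or H3K27Me3, 13 overlapped H3K4Me1 of the other list, against 56.8%.

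**Figure D3:**
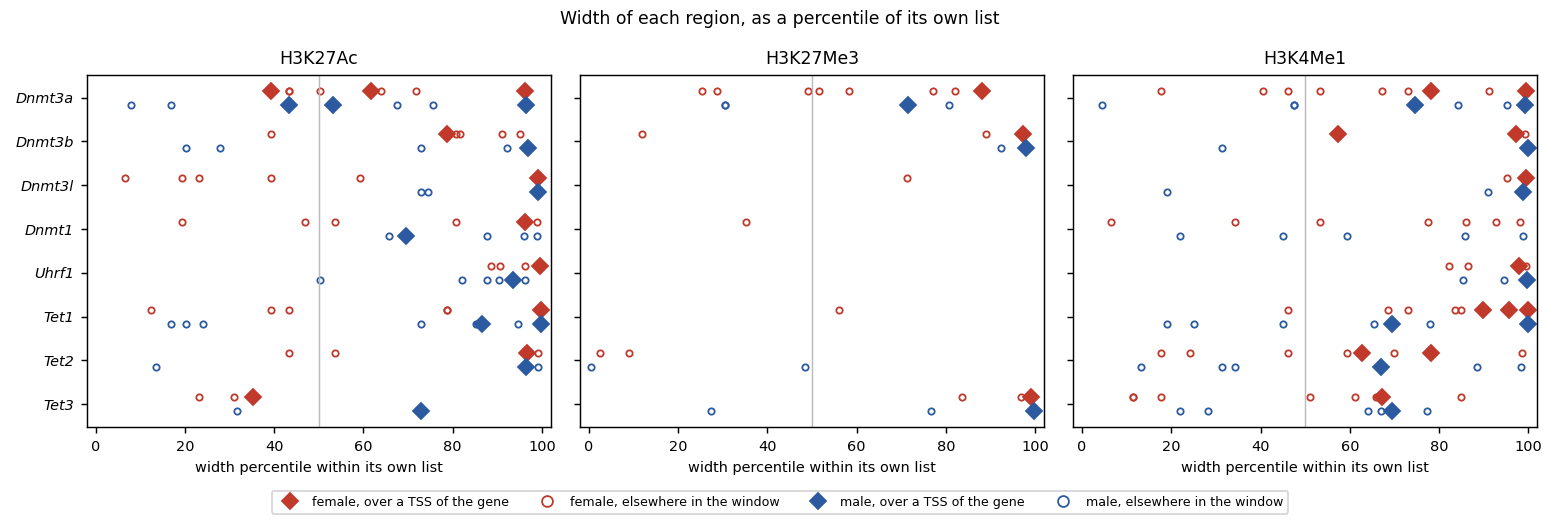
Width of each region near the 8 genes as a percentile of its own list (x axis), by gene (y axis), female list in red above male list in blue, with diamonds for regions over a TSS of the gene and open circles for the rest. Female H3K27Ac regions over a TSS reach the 96.2 percentile or higher at 6 of the 8 genes, and those at the start of Tet3 lie at 35.2 (female) and 72.9 (male).

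Where a female and a male region overlapped each other and no further one, their edges could be compared directly. There were 25 such pairs of H3K27Ac near the 8 genes, of which 13 were wider and 10 narrower in the female list, beside 44.7% wider and 45.1% narrower over all pairs of the mark. The 8 pairs of H3K27Me3 divided into 5 wider and 3 narrower, beside 55.4% and 39.8%. The 22 pairs of H3K4Me1 divided into 12 wider and 9 narrower, whereas over all pairs 41.3% were wider and 52.6% narrower. The median edge difference, regardless of direction, was 500 bp for H3K27Ac, 1200 bp for H3K27Me3 and 600 bp for H3K4Me1, beside 400, 800 and 600 bp over 20384, 8512 and 21239 pairs in the whole lists. Identical edges were 8 of 50 (16.0%), 3 of 16 (18.8%) and 7 of 44 (15.9%), beside 20.6%, 10.7% and 14.1% over all pairs. Since the grid step was 200 bp, median differences amounted to a few steps. The largest of each mark were 13.8 kb for H3K27Ac (Tet1), 5.4 kb for H3K27Me3 (Dnmt3a) and 5.6 kb for H3K4Me1 (Tet1). Large differences were also found elsewhere, with 4.2 kb at Dnmt3b (H3K27Ac), 4.0 kb at Dnmt3l (H3K4Me1) and 3.2 kb at Tet3 (H3K27Me3).

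**Figure D4:**
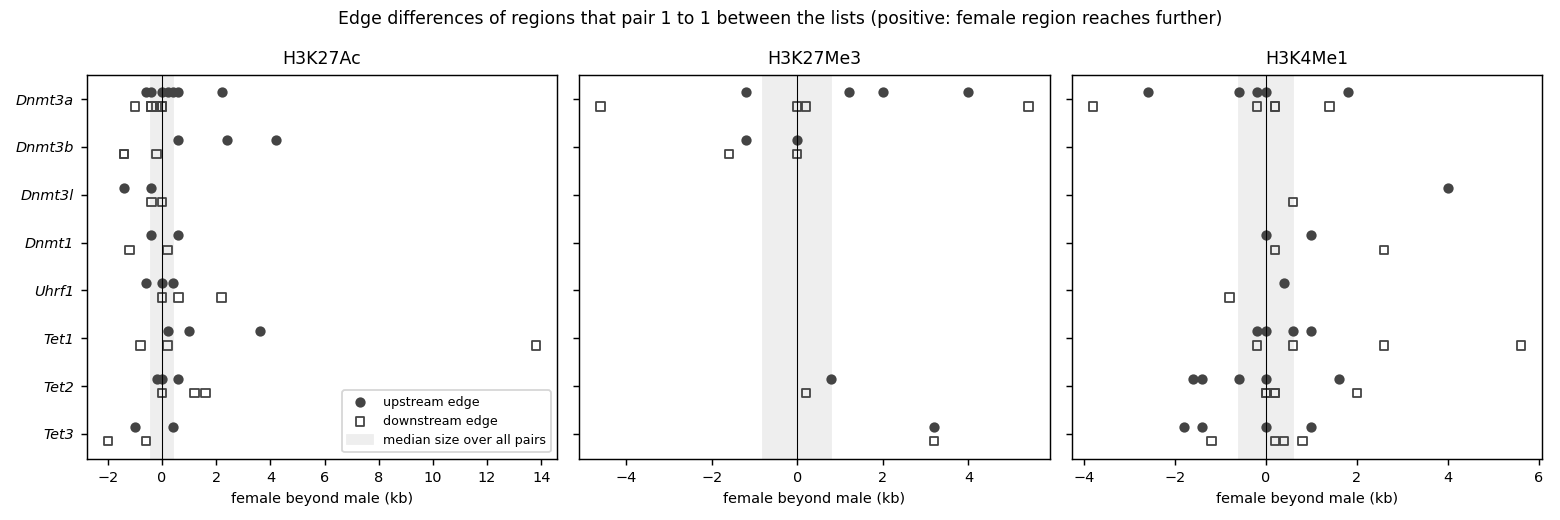
Edge differences (x axis, kb) of regions that overlap 1 to 1, by gene (y axis), with filled circles for the upstream edge and open squares for the downstream edge. Positive values mean that the female region reaches further than the male one, and the grey band is the median size over all pairs of the mark. The point at 13.8 kb is the downstream edge of H3K27Ac inside Tet1.

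Genes that work with these enzymes were read in the same way, over the gene body or within 5 kb of a TSS, for 36 partners in 4 groups. H3K27Ac was present at 35 of 36 in the female list and 35 of 36 in the male list (58.8% and 58.3% of all genes), H3K4Me1 at 35 and 34 (67.0% and 65.4%) and H3K27Me3 at 12 and 11 (40.5% and 35.4%). A female-only H3K27Ac region was found at 6 partners (12.4% of all genes) and a male-only one at Apobec1, a cytidine deaminase (1 of 36; 7.99%), all of which had H3K27Ac in both lists. The 6 were Hells, a remodeller needed for methylation of repeats, the H3K9 methyltransferase Ehmt1, the methyl-CpG binder Zbtb4, Ogt, which binds Tet proteins, and Mat2b and Ahcy of the methyl donor cycle. Ogt is X-linked, and the part of its additional copy in XX cells was not tested. Zbtb33, also X-linked, had no region confined to 1 list.

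A female-only H3K27Me3 region was found at 5 partners (15.6% of all genes), namely Ehmt1, Smchd1, Zbtb38, the glycosylase Neil2 and Cxxc5, and of these Ehmt1 and Neil2 had no H3K27Me3 in the male list. Male-only H3K27Me3 regions were found at 2 (7.55%), namely Prdm14, which had the mark in both lists, and Mat2a, which had none in the female list. A female-only H3K4Me1 region was found at 9 partners (21.4%), of which 6 were among the 10 partners of maintenance methylation (Uhrf2, Hells, Ehmt1, Smchd1, Dmap1 and Pcna) and the others Zbtb38, Cxxc4 and Setdb1. Of the 9, Cxxc4 alone had no H3K4Me1 in the male list. Male-only H3K4Me1 regions were found at Mbd1 and Apobec1 (11.5%), both with the mark in the 2 lists. The maintenance partners all had H3K27Ac in both lists, 10 of 10 and 10 of 10. This was not particular to them, since the readers (9 of 9) and the regulators with methyl supply (6 of 6) had it too in each list. Among partners of demethylation it was present at 10 of 11 in each list. The maintenance partners had H3K27Me3 at 4 of 10 genes in the female list and 3 in the male list, near the 40.5% and 35.4% of all genes.

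**Figure D5:**
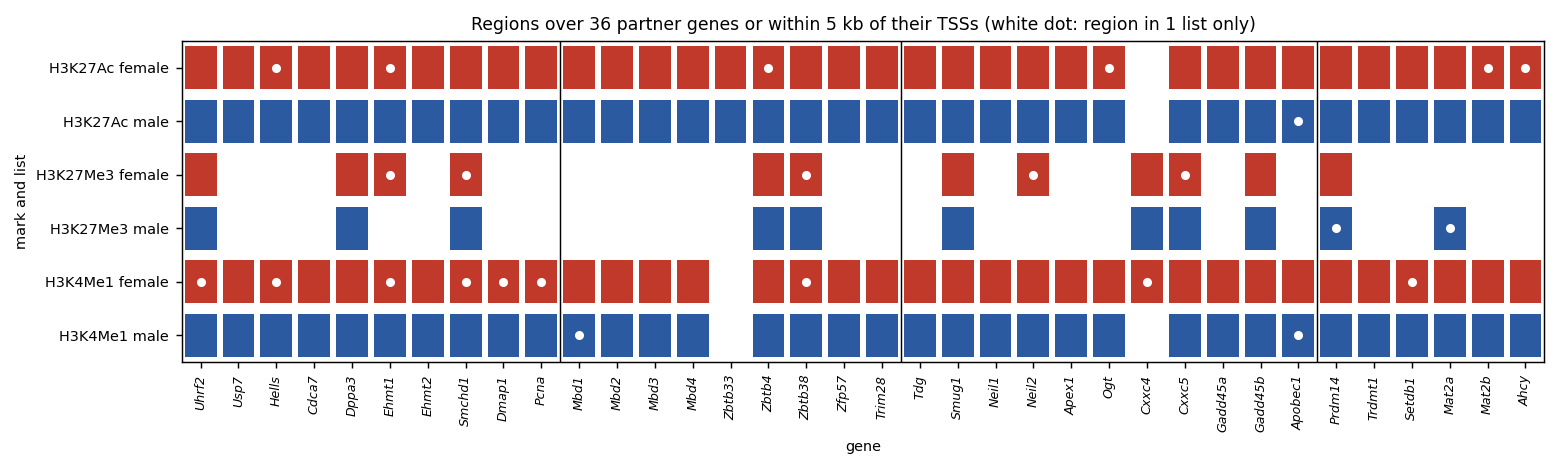
Presence of regions (filled squares) over 36 partner genes or within 5 kb of their TSSs (x axis) for each mark and list (y axis), female list in red above male list in blue, with a white dot where at least 1 region has no overlap in the other list. Vertical lines separate partners of maintenance, readers, partners of demethylation, and regulators with methyl supply. H3K27Ac fills 35 of 36 columns in each list.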

How the data were processed

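ChIP-seq of H3K27Ac, H3K27Me3 and H3K4Me1 in 2 female and 2 male ES cell lines gave 12 of the 16 libraries, and the others were IgG and input. The methods name Bowtie2 for alignment to mm9 and Bedtools for enrichment; Bowtie and deepTools stand in the submitters' processing notes. The authors deposited 6 lists, 1 per sex and mark, whose only values are other than counts or scores, namely the start and end coordinates of regions on a grid of 200 bp. How regions were called, at what threshold, with which control and from which of the lines is not given in the sources used here. Depth is unknown and so is the precision with which a region is present or absent, since a list gets shorter with fewer reads. Whether reads of the CAST/EiJ allele were lost on mm9 was not tested.

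Genes were taken from GENCODE M1 on NCBIM37 (mm9). A window was the gene body plus 50 kb around every annotated TSS. Regions of a mark were shared between the lists when they overlapped by at least 1 bp and otherwise confined to 1 list (female-only or male-only). Positions are given 1-based and in kb from the 5′ end, negative upstream. Shares over all 22367 protein-coding genes or all autosomal regions are the background. No test was made, since each sex and mark has 1 list. The text names each of the 8 genes, each region near them that is confined to 1 list or holds a TSS of the gene, genes next to such regions, and up to 30 partners with a region confined to 1 list, apart from items that are not reported here. The members, gene lists and rules were chosen with earlier results of these data known. Counts were made with Python 3.11.15 and numpy 2.4.6, overlaps were checked against Bedtools 2.31.1 (6 of 6 equal) and tested on simulated data, and figures were drawn with matplotlib 3.10.9. Alternatives were narrower windows, the 5′ end alone, stricter overlap, sharing across gaps of up to 1 kb, the widest 50% of each list and lists of equal length.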

Additional observations from a re-analysis of the deposited data

How the results depend on the processing

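Of 72 counts of genes recomputed under an alternative, 55 were within 1.5 times the value reported and 17 were not. With lists of equal length, which removes the surplus of narrow female regions, 12 of 12 were within it. There H3K27Me3 was still present at 6 genes in the female list and 4 in the male list, and female-only at 4 genes (Dnmt3a, Dnmt3l, Dnmt1 and Tet1). With the gene body plus 5 kb around each TSS, genes with female-only H3K27Ac numbered 3 (12.4% of all genes). Those with female-only H3K27Me3 numbered 2, Dnmt3a and Dnmt1 (15.6%), and those with female-only H3K4Me1 3 (21.4%). Genes with male-only H3K27Me3 or H3K4Me1 then numbered 0 and 0 (7.55% and 11.5% of all genes). Genes with H3K27Me3 numbered 4 in the female list and 3 in the male list (40.5% and 35.4%). The covered lengths, female list before male list, were then 250.1 and 223.9 kb for H3K27Ac, 62.6 and 49.5 kb for H3K27Me3, and 375.1 and 345.1 kb for H3K4Me1. With 20 kb around each TSS the male-only counts were 0 for H3K27Me3 and 0 for H3K4Me1, and with the 5′ end alone 0 for H3K4Me1. With the widest 50% of each list, covered lengths were 360.8 and 340.9 kb, 140.4 and 102.2 kb, and 633.7 and 534.4 kb in the same order. Female-only H3K27Ac was found at 3 genes, male-only H3K27Ac at 5, and male-only H3K27Me3 and H3K4Me1 at 0 and 0. Since both lists were trimmed before the comparison, a region also counted as confined to 1 list where its partner had been dropped. A reciprocal overlap of 50% is a stricter rule for sharing, under which overlapping regions of unlike width count as confined to 1 list, so these counts cannot fall. It gave female-only counts of 8, 7 and 7 genes and male-only counts of 8, 3 and 7 genes for H3K27Ac, H3K27Me3 and H3K4Me1. Sharing across gaps of up to 1 kb gave 0 for male-only H3K27Me3. Apart from the 5 kb window, the share over all genes was not computed for these alternatives.

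No paired analysis was possible because the lists do not separate the lines of a sex, and no line was left out for the same reason. Each male-only count rests on 1 or 2 genes. Depth, height and threshold of the regions are unknown, which limits every comparison of presence.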
